A study of Mus musculus with 30 samples.

Results

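The sites described here are those at which ER-HOXA9 was recovered by V5 ChIP-seq in V5-ER-Hoxa9-AM cells under a pair of culture conditions. In the first, estradiol (E2) was withdrawn for 72 h and then given back for 48 h. In the second, E2 was present throughout. The first library's peak list, called the 72 h list below, held 387 sites and the second, the E2 list, held 1417. Sites were sorted by whether they overlapped a site of the other list by at least 1 bp. This gave 147 sites in the 72 h list only, 240 in both lists and 1177 in the E2 list only, or 1564 sites in all. Across all 5 V5 and AM lists of the series, 17928 sites were found after merging.

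HOXA9 is a homeodomain transcription factor that is high in blood stem and progenitor cells and falls as myeloid cells mature. Kept high, it holds myeloid progenitors in an immature, dividing state and is a common feature of acute myeloid leukaemia. A fusion with part of the estrogen receptor (ER), the stretch that binds hormone, makes the protein depend on E2, so that taking E2 away lets the cells differentiate. HOXA9 mostly binds distal enhancers, often with MEIS and PBX cofactors and near sites of the myeloid factors C/EBPα, PU.1 and RUNX1. The series examines chromatin before and after myeloid commitment becomes irreversible, and the comparison here bears on where the fusion protein is found when E2 is returned after a long withdrawal.

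The cells carry the C57BL/6 strain label and were grown in vitro with medium conditioned by stem cell factor. Withdrawal was done by washing in buffer and changing to medium without E2. All groups used here carry a HOXA9 construct. They are V5-ER-Hoxa9-AM cells at 72 h restored (V5) and in E2 (V5 and AM), untreated V5-Hoxa9-AM cells without the ER domain (V5 and AM), and ER-Hoxa9-Lys-GFP cells for H3K4me3, a histone mark of active promoters. The H3K4me3 cells were in E2, without E2 for 24, 40 or 72 h and then with it for 96, 80 or 48 h, or without E2 for 120 h. Both AM libraries carry V5 as their antibody label and are called AM by their titles. The labels do not say whether a line is a single clone, and name no cell type. As markers, the starts of Gapdh, Myb, Kit and Cebpa carried an H3K4me3 peak in all 5 lists, that of Mpo in all but the 120 h list, and that of Ltf, a gene of maturing neutrophils, in the 120 h list alone. Elane had none within 1 kb of its start in any list.

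Each group is 1 library, which leaves every difference here without replicates, and no test across samples was possible. The intervals given are 95% intervals over counts of sites and cover site-counting error only; neighbouring sites are not independent. The lists give coordinates without height, score or read depth. A site missing from a list was therefore not called there, which is not the same as unbound. Coordinates are mm10 (GRCm38). The width of a site is also not a property of its ER library alone. Of the 72 h sites, 376 had exactly the start and end of a V5-Hoxa9-AM V5 site, and so did 1079 of the E2 sites. Every overlap of a 72 h or E2 site with a site of another V5 or AM list was an exact match of coordinates. The sources used here do not say whether the lists were drawn from a joint set of peaks, so membership and width may not be separate measurements of each library.

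Sequences could be shown where a site lay over the promoter window of a gene, which runs from 250 bases before to 50 after its start. In the 72 h list only, Ms4a3 was the single gene with a site over its window. Sites in both lists covered all or part of the windows of 8 genes, 6 of them protein-coding. Sites in the E2 list only did so for 30, of which 10 were protein-coding. The windows printed are those of Ms4a3, 3 genes of the shared class and 2 genes of the E2-only class, all at sites that cover the whole window. They were picked after their values were seen, since between them they span the classes and several encode myeloid surface proteins. Ms4a3 encodes a membrane protein of granulocyte and monocyte progenitors. CD33 is a sialic acid-binding receptor of myeloid cells, Dnajc10 encodes a co-chaperone of the endoplasmic reticulum, and Wfdc17 a secreted WAP-domain protein. CLEC4E and CLEC12A are C-type lectin receptors of myeloid cells. The sequences are those of RefSeq (GRCm38.p6), 5′ to 3′ on the gene's strand, and capitals mark matches, read on this strand or its complement, to the motifs given after them.
Ms4a3 (site in the 72 h list only; window chr19:11640802-11641101, minus strand): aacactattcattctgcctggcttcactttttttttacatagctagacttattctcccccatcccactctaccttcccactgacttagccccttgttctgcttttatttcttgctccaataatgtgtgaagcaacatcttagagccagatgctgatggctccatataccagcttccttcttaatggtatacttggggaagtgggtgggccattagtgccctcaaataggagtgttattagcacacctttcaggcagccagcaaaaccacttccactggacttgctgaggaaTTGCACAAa
Cd33 (site in both lists; window chr7:43533122-43533421, minus strand): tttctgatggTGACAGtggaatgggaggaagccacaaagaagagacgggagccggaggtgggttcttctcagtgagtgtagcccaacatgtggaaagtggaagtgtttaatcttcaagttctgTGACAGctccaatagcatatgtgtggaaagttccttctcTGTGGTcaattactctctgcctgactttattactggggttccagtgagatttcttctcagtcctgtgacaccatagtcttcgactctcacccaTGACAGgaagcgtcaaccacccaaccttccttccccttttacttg
Dnajc10 (site in both lists; window chr2:80315216-80315515, plus strand): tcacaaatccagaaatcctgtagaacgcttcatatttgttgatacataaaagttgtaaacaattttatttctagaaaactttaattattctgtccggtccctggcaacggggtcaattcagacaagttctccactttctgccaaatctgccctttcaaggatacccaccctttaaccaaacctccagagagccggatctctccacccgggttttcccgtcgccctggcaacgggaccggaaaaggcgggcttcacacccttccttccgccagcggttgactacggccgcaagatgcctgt
Wfdc17 (site in both lists; window chr11:83703806-83704105, plus strand): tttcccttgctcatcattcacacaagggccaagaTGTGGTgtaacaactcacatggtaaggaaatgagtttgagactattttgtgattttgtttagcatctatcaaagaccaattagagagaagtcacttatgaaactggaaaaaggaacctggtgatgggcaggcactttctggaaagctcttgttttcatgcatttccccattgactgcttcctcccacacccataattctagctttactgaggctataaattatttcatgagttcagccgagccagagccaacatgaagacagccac
Clec4e (site in the E2 list only; window chr6:123289822-123290121, minus strand): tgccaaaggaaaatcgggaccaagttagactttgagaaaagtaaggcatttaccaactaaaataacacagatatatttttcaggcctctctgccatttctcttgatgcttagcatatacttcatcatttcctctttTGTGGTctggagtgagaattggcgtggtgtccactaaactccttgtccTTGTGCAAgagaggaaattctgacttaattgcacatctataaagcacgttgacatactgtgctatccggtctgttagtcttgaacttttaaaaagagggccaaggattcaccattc
Clec12a (site in the E2 list only; window chr6:129349994-129350293, plus strand): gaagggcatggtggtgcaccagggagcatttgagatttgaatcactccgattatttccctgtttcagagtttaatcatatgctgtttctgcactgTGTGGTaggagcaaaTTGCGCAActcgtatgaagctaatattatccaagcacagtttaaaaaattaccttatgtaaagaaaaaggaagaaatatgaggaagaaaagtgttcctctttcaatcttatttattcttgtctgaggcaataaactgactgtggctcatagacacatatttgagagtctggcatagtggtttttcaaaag
The motifs searched, on both strands, were TGATTTAT, TTTATGG and TGATTGAT (HOX with a PBX or MEIS partner), TGACAG (MEIS), TTGCNNAA (C/EBP), GAGGAAGT (PU.1), TGTGGT (RUNX) and CATTGTG (SOX). Among the windows above, Ms4a3 held the C/EBP letters, Cd33 those of MEIS and RUNX, Wfdc17 those of RUNX, and Clec4e and Clec12a those of C/EBP and RUNX. Dnajc10 held none of them. Over all 40 windows under a site of either list, 15 held the RUNX letters, a share of 37.5% (22.7 to 54.2). This compares with 17.0% of 1490 windows under V5-Hoxa9-AM V5 sites in neither list and 16.6% of all 32619 windows. The C/EBP letters were in 10 of the 40 (25%, 12.7 to 41.2), against 13.02% and 10.9%. Split by list, the RUNX letters were in 4 of 9 windows under a 72 h site and in 11 of 31 under an E2-only site, with intervals that overlap (13.7% to 78.8% and 19.2% to 54.6%). Of the HOX motifs, TTTATGG was in 3 of the 40 (7.5%, 1.57 to 20.4), against 1.95% under sites in neither list and 2.76% of all windows. TGATTTAT and TGATTGAT were in 0 of the 40 windows, which allows a share of up to 8.81%, and in 0.98% and 0.75% of all windows. The MEIS letters were in 6 (15%), against 18.8% and 18.9%, the PU.1 letters in 3 (7.5%), against 5.44% and 3.22%, and the SOX letters in 2 (5%), against 2.82% and 4.13%. A window was counted when a site covered only part of it, so a match can lie outside the site. At Gm51991 the site covered 22 bases, and the TTTATGG match lay outside them. The 40 windows are also not all separate, since Gm44505 and Zfp91 have the same window and those of Gm34648 overlap. These motifs are short and were searched in promoter windows only. Sites away from promoters, which are most of them, were not searched.

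The E2 list was 3.66 times as long as the 72 h list. Of the 72 h sites, 62% were also in the E2 list (57.0 to 66.9), while 16.9% of the E2 sites were also in the 72 h list (15.02 to 18.99). The other 147 sites of the 72 h list were not called in E2, so the shorter list was not a subset of the longer one. When the E2 list was reduced to its 387 widest sites, 38.2% of them were in the 72 h list. Every chromosome from 1 to 19 and X held sites of each class. By chromosome, the 72 h sites found in the E2 list made up 47.6% to 83.3%, and the E2 sites found in the 72 h list 7.90% to 26.1%.

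The 3 classes differed in how often they were found in the other HOXA9 lists. The V5-Hoxa9-AM V5 list, of the protein without the ER domain, held 141 of the 147 sites in the 72 h list only (95.9%, 91.3 to 98.5), 235 of the 240 shared sites (97.9%, 95.2 to 99.3) and 844 of the 1177 sites in the E2 list only (71.7%, 69.0 to 74.3). Sites in the 72 h list only thus exceeded those in the E2 list only by 24.2 percentage points (19.03 to 27.65). In the V5-Hoxa9-AM AM list the shares were 81.6%, 95% and 52.8% in the same order of classes. There, the 72 h-only class stood 28.8 points above the E2-only class (21.2 to 34.9) and 13.4 points below the shared class, a difference of -13.4 (-20.7 to -6.89). The classes also differed in width, with medians of 525, 639.5 and 416 bp in the same order, and the part of width in these differences was not tested. For comparison, 33.1% of the V5-Hoxa9-AM V5 sites in neither ER list were in the V5-Hoxa9-AM AM list. In neither V5-Hoxa9-AM list were 5 of the 147, 5 of the 240 and 332 of the 1177 sites, so the sites without a counterpart were nearly all in the E2-only class.

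The AM list of V5-ER-Hoxa9-AM cells in E2 is short, with 258 sites, of which 255 are sites of the E2 V5 list. It is thus close to a subset of that list, and the 72 h-only class, defined by absence from the E2 V5 list, could hold at most a few of its sites; it held 0 of the 147, which follows from the definition. The comparison open to it is within the E2 list. There it held 96 of the 240 shared sites (40%, 33.8 to 46.5) and 159 of the 1177 sites in the E2 list only (13.5%, 11.6 to 15.6).

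**Figure D1:**
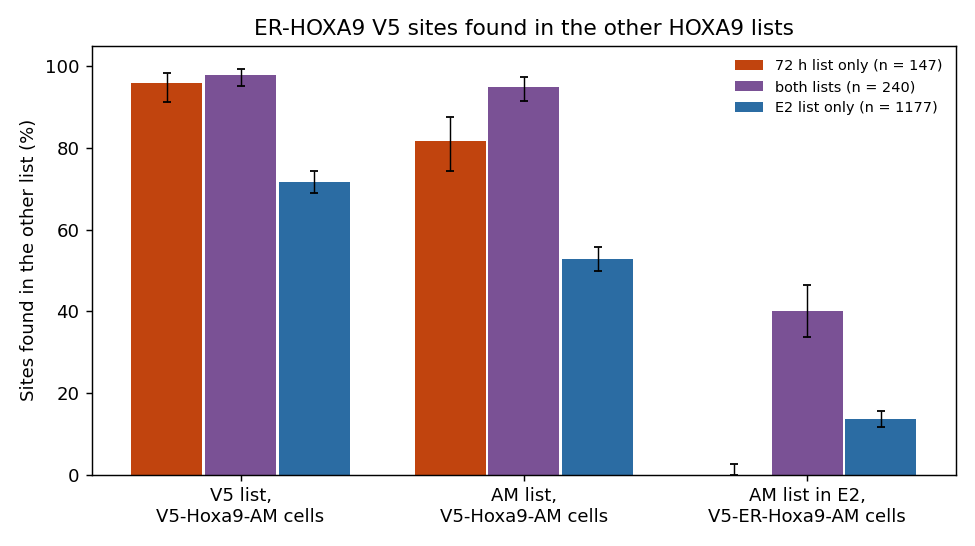
Share of ER-HOXA9 V5 sites (percent, y axis) found in each of 3 other HOXA9 lists (x axis), for sites in the 72 h list only, in both lists and in the E2 list only; bars carry 95% Clopper-Pearson intervals. The 72 h-only bars stand at 95.9% and 81.6% in the V5-Hoxa9-AM lists, above the E2-only bars at 71.7% and 52.8%, and at 0 in the AM list of V5-ER-Hoxa9-AM cells in E2, where the class definition leaves almost no room for a site.

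Wider sites were found in the other lists more often. The median width was 525 bp in the 72 h list only, 639.5 bp in both lists and 416 bp in the E2 list only, against 298 bp for V5-Hoxa9-AM V5 sites in neither list. The narrowest site of the 72 h list was 328 bp, and the narrowest E2-only site 186 bp. Split by width into 4 bins of like size, the E2 list had 0 of 355, 25 of 354 (7.06%), 73 of 354 (20.6%) and 142 of 354 (40.1%) sites in the 72 h list, from the narrowest to the widest. Among E2 sites that share coordinates with a V5-Hoxa9-AM V5 site, the 4 bins ran 2.59%, 15.2%, 26.02% and 43.3%. Membership in other lists went with it. E2 sites that were also in the AM list of E2 cells were in the 72 h list in 37.6% of cases and the others in 12.4%, and E2 sites in all 3 other HOXA9 lists in 50.6%.

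The same held seen from the V5-Hoxa9-AM V5 list. Of its 17006 sites, 2.21% were in the 72 h list and 6.35% in the E2 list. In the widest of 4 bins 343 of 4252 sites were in the 72 h list (8.07%) and 766 in the E2 list (18.02%), whereas in the narrowest bin 0 and 4 were. Read depth, peak height and the calling threshold were not analysed here, and their part in the shorter 72 h list was not tested.

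**Figure D2:**
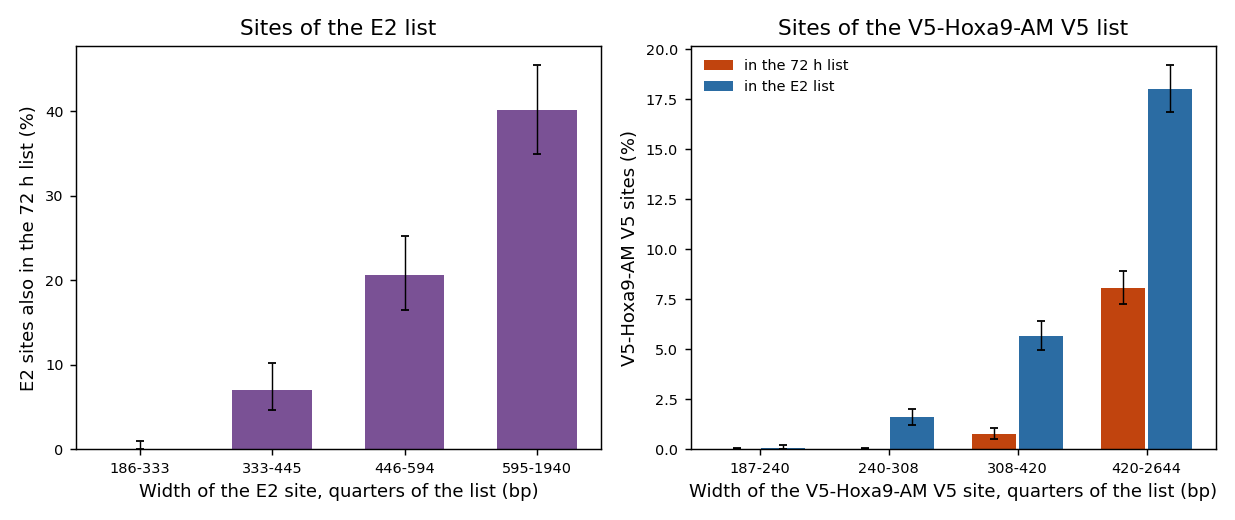
Left, percent of E2 sites also in the 72 h list, in 4 bins of E2 site width in bp; right, percent of V5-Hoxa9-AM V5 sites found in the 72 h list and in the E2 list, in 4 bins of their own width. Bars carry 95% Clopper-Pearson intervals, and the share rises with width, up to 40.1% on the left and to 8.07% (72 h) and 18.02% (E2) on the right.

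In the 72 h list only, the widest site was 1383 bp long, at chr9:115316183-115317565, 5715 bp from Stt3b, which encodes a catalytic subunit of the oligosaccharyltransferase. The next were near Btg1 (antiproliferative factor), Rin3 (a regulator of RAB5), Fgd4, Klf6, Vti1a, Tomm20, Trappc8, Lmo4 and Sem1. The widest shared site, 1893 bp at chr1:128613823-128615715, lay 21524 bp from Cxcr4, the CXCL12 receptor that keeps progenitors in the marrow. It was followed by sites near Scp2, B3gnt5, Cdk6, Gpr84, Myh9, Kcnh7, Olfr70, Csmd1 with C030002A05Rik, and Tcf12. In the E2 list only, the widest was 1940 bp at chr2:173171352-173173291, 12078 bp from Pck1. Vav3, Map3k7cl, Angpt1 (the TIE2 ligand), H2-DMb1, Egln3, Foxk1, Extl3, Psat1 and Tent5a followed. Nearest genes are neighbours on the map, and are not shown to be targets.

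Sites of all 3 classes were mostly away from gene ends. Within 1 kb of a gene end lay 6.12% of the sites in the 72 h list only, 6.67% of the shared sites and 4.08% of those in the E2 list only, against 12.2% of the V5-Hoxa9-AM V5 sites in neither list. Inside genes and more than 1 kb from a gene end lay 40.1%, 45.4% and 45.4%. The median distance to a gene start was 37.2, 40.1 and 47.2 kb. The intervals of all these differences in share among the 3 classes included 0. Shared sites lay closer to other E2 sites, with another one within 10 kb in 20% of cases (15.1 to 25.6), against 10.2% (5.83 to 16.3) for the 72 h-only class and 13.6% (11.7 to 15.7) for the E2-only class.

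Within 10 kb of a site lay 94 of 21631 protein-coding genes for the 72 h-only class (0.435%), 172 for shared sites (0.795%) and 722 for the E2-only class (3.34%). V5-Hoxa9-AM V5 sites in neither list had 7030 (32.5%). Taken by list, 257 genes were near a 72 h site (1.19%) and 844 near an E2 site (3.9%). Of these, 178 were near both, which is 69.3% of the 72 h genes and 21.1% of the E2 genes. The 79 genes near a 72 h site only and the 666 near an E2 site only are not shown to differ in activity. Gene list counts below are read against these percentages.

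Of 38 stem and progenitor genes, 0 were within 10 kb of a site in the 72 h list only, beside 0.435% of all genes. Within 10 kb of a shared site were 2 (5.26%, beside 0.795%), and of a site in the E2 list only 14 (36.8%, beside 3.34%). The shared sites were near Mef2c, a myeloid and lymphoid transcription factor gene, and Tespa1. The 14 were Cd34, Flt3, Erg, Runx1, Gfi1b, Cd48, Cd27, Muc13, Dntt, Etv6, Angpt1, Msi2, Hmga2 and Adgrg1. In the same list, 18 genes (47.4%) were within 10 kb of a V5-Hoxa9-AM V5 site in neither ER list, beside 32.5% of all genes. The genes of this list are long, with a median of 47.5 kb against 17.3 kb for all protein-coding genes, and a long gene spans more of any set of sites; the part of length was not tested. With a window of 5 kb the E2-only count was 10, beside 2.8% of all genes, and with 50 kb it was 16, beside 7.34%. The shared count was 2 and 5, beside 0.661% and 1.64%, and the 72 h-only count 0 at each. Of all genes, 0.356% (5 kb) and 1.08% (50 kb) were near a 72 h-only site, so 0 of 38 is close to that share.

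Cd34, the surface sialomucin that marks progenitors, had a single site within 10 kb, in the E2 list only, at chr1:194942964-194943833. It was 870 bp wide, 4143 bp into the gene, and in the V5-Hoxa9-AM V5 list and the AM list of E2 cells. The nearest 72 h site was 10320.6 kb away. Flt3, the receptor of the progenitor cytokine FLT3 ligand, had 3 sites in the E2 list only, all inside the gene, of 347, 375 and 369 bp, and its nearest 72 h site was 127.2 kb away. Erg and Runx1, transcription factor genes of stem cells, had 2 E2-only sites each, and Angpt1 had 3. Of Angpt1's, 1 was 1557 bp wide and overlapped an H3K4me3 peak in all 5 lists. Meis1, a cofactor gene of HOXA9, had an E2-only site of 248 bp at chr11:18883548-18883795, which no other HOXA9 list held. Hoxa9 itself was 446.3 kb from the nearest 72 h site and 462.4 kb from the nearest E2 site. Meis1 was the 1 of 20 HOX cofactor and Hoxa genes within 10 kb of a site of either list. That is 5%, close to the 3.34% of all genes near an E2-only site. Near V5-Hoxa9-AM V5 sites in neither list were 2 of the 20 (10%, beside 32.5%).

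Myb and Kit had no site of either list within 10 kb. Their nearest 72 h sites were 40.8 and 73.9 kb away, and so were their nearest E2 sites. Sox4 had none either, with the nearest 72 h site at 451.0 kb and the nearest E2 site at 109.6 kb. V5-Hoxa9-AM V5 sites in neither list within 10 kb numbered 5 for Myb, 0 for Kit and 3 for Sox4.

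Primary granule genes are switched on in promyelocytes, and at 10 kb were the list with the most genes near sites in the 72 h list only. Of 15, 3 were within 10 kb of a site in the 72 h list only (20%, beside 0.435% of all genes). Within 10 kb of a shared site was 1 (6.67%, beside 0.795%), and of an E2-only site 2 (13.3%, beside 3.34%). The 3 near 72 h-only sites were Ms4a3, Fcnb, which encodes the granule lectin ficolin B, and Serpinb1a, an inhibitor of neutrophil serine proteases. The Fcnb site lay at chr2:28091921-28092500, 7011 bp from the gene, and the Serpinb1a site, 400 bp wide, 7161 bp from the gene. With a window of 5 kb the count was 1, Ms4a3, beside 0.356% of all genes. This was level with the myeloid transcription factor list, which had Klf6. Srgn, the granule proteoglycan serglycin, held a shared site, and Ctsg, cathepsin G, had 2 E2-only sites. Mpo and Elane had no site of either list within 10 kb, with 3 V5-Hoxa9-AM V5 sites in neither list each. Of the 15 genes, 12 (80%) were near a V5-Hoxa9-AM V5 site in neither list, beside 32.5% of all genes. High shares were not particular to this list. The other lists ran from 10% (HOX cofactors and Hoxa genes) to 71.4% (myeloid transcription factors), with housekeeping genes at 66.7%.

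At Ms4a3 the lists named different sites of the same gene. The 72 h list held chr19:11640548-11641346, 799 bp over the start. The E2 list held chr19:11636560-11637155, 596 bp wide and 3.70 kb into the gene. Neither site was in the other ER list, and both were in the V5 and AM lists of V5-Hoxa9-AM cells. The start site carried H3K4me3 in the 72 h and 120 h lists and in none of the E2, 24 h and 40 h lists.

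The other myeloid lists had between 0 and 3 genes near a site of each class. Among 35 myeloid transcription factor genes, 1 was near a 72 h-only site (2.86%, beside 0.435% of all genes) and 3 near an E2-only site (8.57%, beside 3.34%). Klf6 had a site in the 72 h list only, at chr13:5874924-5876129, 1206 bp wide and 4531 bp from the gene, while Cebpa, Irf2 and Runx2 had sites in the E2 list only. Irf2 had 4 within 5 kb of the gene's end, 2 of them in no other HOXA9 list. Gfi1, a repressor needed for granulocyte formation, had its nearest 72 h site 17.3 kb away, at chr5:107698698-107699401. Among 30 monocyte and macrophage genes the counts were again 1 (3.33%) and 3 (10%). Tlr4, the lipopolysaccharide receptor, was near a 72 h-only site, and Ccr2, F13a1 and Itgax near E2-only sites. Among 34 neutrophil maturation genes, Mmp8, the neutrophil collagenase, held a shared site (2.94%, beside 0.795% of all genes). Near a site of either single-list class were 0 of the 34. Spi1, Cebpe and Ltf had no site of either list within 10 kb.

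Counts in the remaining lists were small, and a 0 in lists of this size is to be read beside the 0.435% of all genes near a 72 h-only site. Of 29 lymphoid genes, 5 were near E2-only sites (17.2%, beside 3.34%), namely Ebf1, Igll1, Vpreb1, Gimap4 and Gimap6, and 0 near 72 h-only or shared sites. Igll1 and Vpreb1 share a site, as do the pair of Gimap genes. Of 14 genes marking mast cells, other granulated cells or dendritic cells, Cpa3, Mcpt8 and Ms4a2 were near E2-only sites (21.4%), Mcpt8 through a site it shares with Ctsg. Of 29 cytokine receptor and feedback genes, Il1r1, Flt3 and Dusp6 were (10.3%). Pdgfrb was the 1 of 12 fibroblast, epithelial and endothelial genes near an E2-only site (8.33%). With a window of 50 kb, the mast cell and the fibroblast lists each had 1 gene near a 72 h-only site, beside 1.08% of all genes. Within 10 kb, neither the 14 erythroid and megakaryocyte nor the 15 housekeeping genes had a site of any class. With 50 kb, 2 genes of each of these lists were near an E2-only site, beside 7.34% of all genes.

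Among cell cycle genes, Cdk6 held 1 of the 10 widest shared sites. Cdk6, a kinase that drives cells through G1, had shared sites of 1050 bp at chr5:3497231-3498280 and 1357 bp at chr5:3501617-3502973, and an E2-only site of 479 bp at chr5:3405135-3405613. Both shared sites were in all 3 other HOXA9 lists. Rb1, the retinoblastoma gene, had a shared site of 411 bp and an E2-only site of 555 bp. These were the only genes of 26 with a site of either list within 10 kb. That is 7.69% for the shared and for the E2-only class, beside 0.795% and 3.34% of all genes. Cdk6 spans 190.0 kb, against a median of 17.3 kb for all protein-coding genes, and the part of length was not tested.

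**Figure D3:**
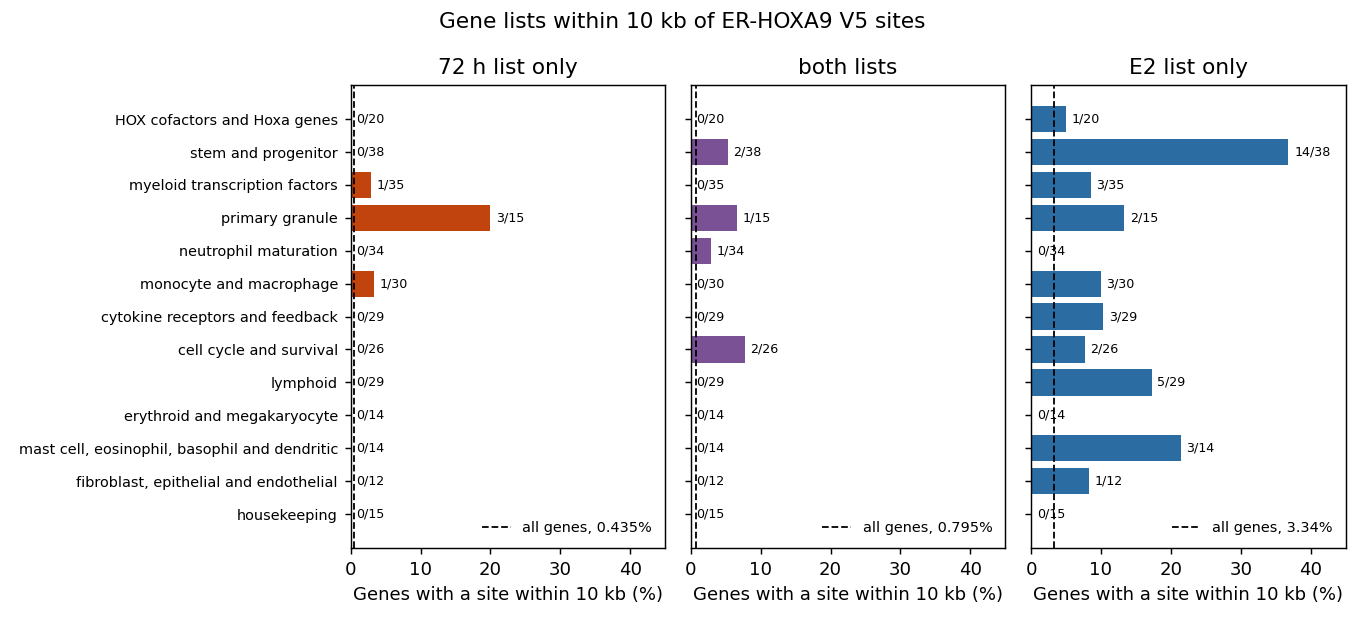
Percent of genes in each of 13 lists (rows) with a site within 10 kb, for the 72 h-only, shared and E2-only classes; numbers give genes with a site of genes in the list, and the dashed line gives the percent over all protein-coding genes. The longest bars are primary granule genes in the 72 h-only panel (3 of 15) and stem and progenitor genes in the E2-only panel (14 of 38).

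Several genes gathered sites of more than 1 class. Of all genes, 28 had 3 or more sites of either list within 10 kb and 9 had 4 or more. Zfp608 had 6, of which 3 were shared and 3 E2-only. Fgd4 had 2 sites in the 72 h list only, 1 shared and 1 E2-only, and the 72 h-only site chr16:16572901-16574123 lies next to the shared site chr16:16574125-16574999. Ahi1, a gene beside Myb, had a 72 h-only, a shared and 2 E2-only sites, and Sipa1l1 1 in the 72 h list only, 2 shared and 1 E2-only. The others with 4, Asap1, Bcas3, Adipoq, Foxp1 and Irf2, had shared or E2-only sites and none in the 72 h list only.

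**Figure D4:**
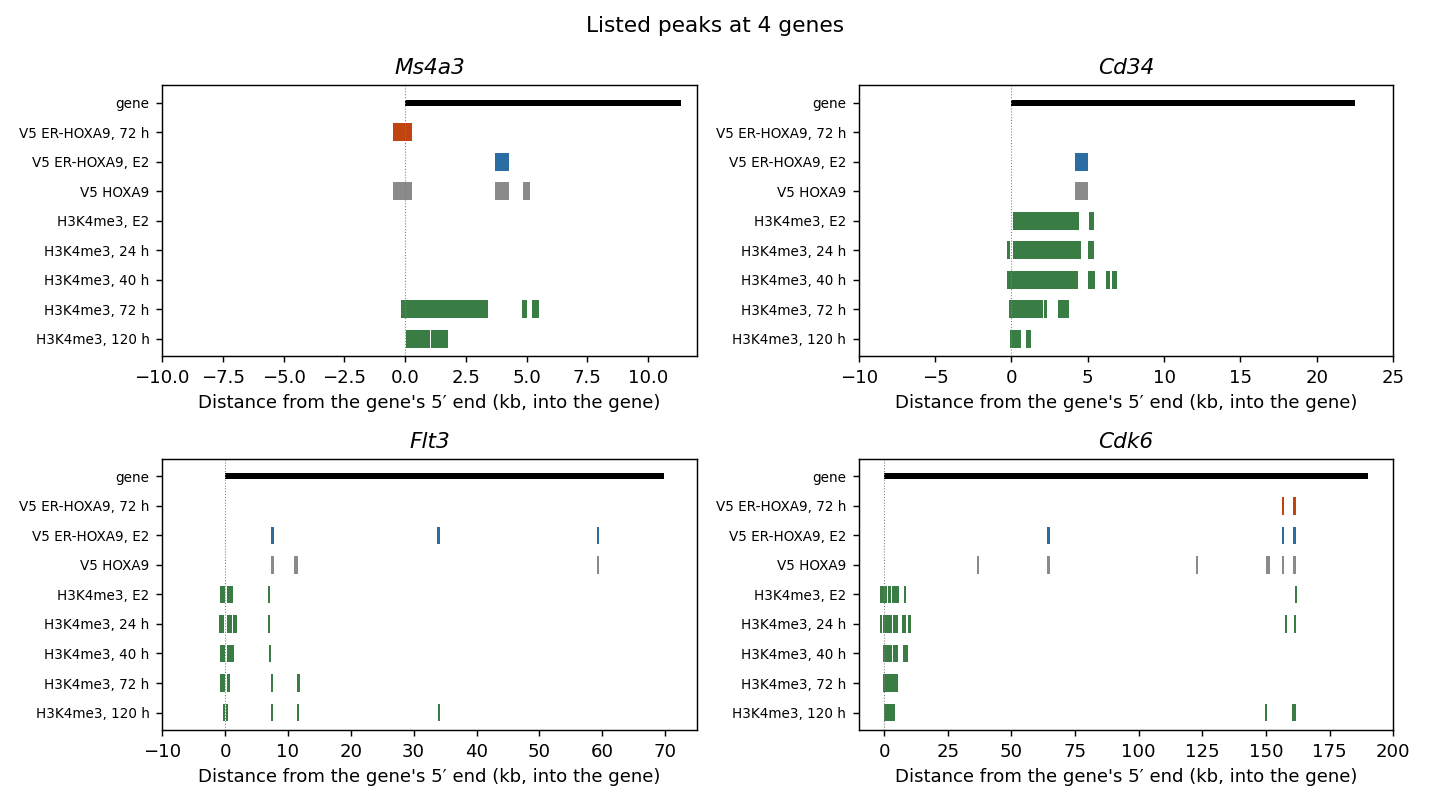
Listed peaks at Ms4a3, Cd34, Flt3 and Cdk6, by distance in kb from the gene's 5′ end; rows are the gene, the 72 h and E2 V5 lists, the V5-Hoxa9-AM V5 list and the 5 H3K4me3 lists (E2, 24, 40, 72 and 120 h), with bars drawn to their listed width except that very short ones are widened to be visible. Ms4a3 has its 72 h site over the 5′ end and its E2 site at 3.70 kb; Cd34 and Flt3 have E2 sites only, and Cdk6 has both shared sites near 156.2 and 160.6 kb.

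H3K4me3 comes from another line, ER-Hoxa9-Lys-GFP, so mark and binding were not measured in the same cells, and the lists differ in length, from 17497 to 23835 peaks. Along E2, 24, 40, 72 and 120 h, the 72 h-only sites were overlapped by an H3K4me3 peak in 3, 6, 8, 7 and 19 of 147 cases, or 2.04%, 4.08%, 5.44%, 4.76% and 12.9%. Shared sites were overlapped in 15, 23, 22, 22 and 34 of 240 cases (6.25% to 14.2%), and E2-only sites in 38, 81, 84, 84 and 116 of 1177 (3.23% to 9.86%). V5-Hoxa9-AM V5 sites in neither list were overlapped in 8.63%, 12.6%, 12.8%, 14.1% and 17.3%. In all 4 groups the 120 h list gave the highest share. H3K4me3 lists cut to equal length gave 7.48%, 8.33% and 6.46% in the 120 h list for the 72 h-only, shared and E2-only classes, each lower than with the full list. Between classes, the interval of the difference excluded 0 in few cases. Over all measures 60 differences between classes were computed, and the intervals were not adjusted for that number. In the E2 list, shared sites stood 3.02 points above E2-only sites (0.327 to 6.92), and in the 120 h list 4.31 points (0.0472 to 9.53). Shared sites were also wider (median 639.5 against 416 bp), and the part of width in these overlaps was not tested. In the 24 h list the difference between 72 h-only and shared sites was -5.50 points (-10.4 to -9.7e-05). For the 72 h-only class against the E2-only class, all 5 intervals included 0. In none of the 5 lists were 85.7% of 72 h-only, 79.6% of shared and 85.1% of E2-only sites, and the difference of shared minus E2-only sites, -5.55 points (-11.4 to -0.459), also had an interval without 0.

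Away from gene starts the shares were lower. Sites more than 1 kb from a listed gene start were taken, chromosome 18 left out. Some may lie at starts that are not listed. Of these, the 120 h list overlapped 11.03% of 72 h-only, 12.1% of shared and 8.42% of E2-only sites, beside 9.72% of the sites in neither list.

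**Figure D5:**
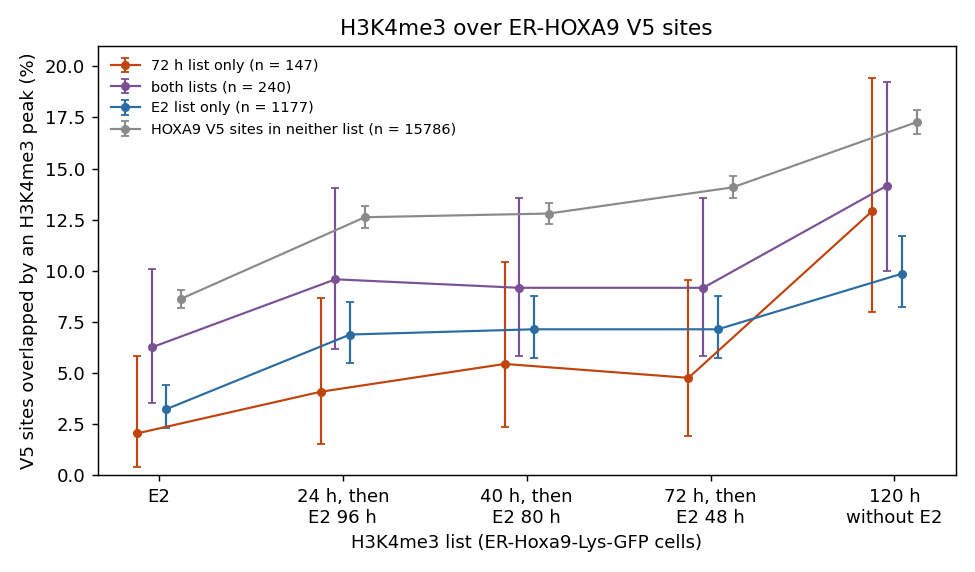
Percent of V5 sites overlapped by an H3K4me3 peak (y axis) in each of 5 H3K4me3 lists of ER-Hoxa9-Lys-GFP cells (x axis). Values are given by site class and for V5-Hoxa9-AM V5 sites in neither list, with 95% Clopper-Pearson intervals. The lists are ordered by length of E2 withdrawal. E2 was given back after every withdrawal but that of 120 h, so the axis is not a time course. Each class is highest at 120 h (12.9%, 14.2% and 9.86% for the 72 h-only, shared and E2-only classes) and the intervals of the 3 classes overlap.

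Few sites changed their H3K4me3 with the culture conditions in a stepwise way. Marked at 72 and 120 h and not in E2, at 24 h or at 40 h were 2 of the 147 sites in the 72 h list only (Ms4a3 and Mapk4), 3 of the 240 shared sites (near Xdh, Hspa9 and Ptpn11) and 13 of the 1177 E2-only sites. These compare with 1.34% of V5-Hoxa9-AM V5 sites in neither list. Among the 13 was the Flt3 site that begins 7.37 kb into the gene; in E2 an H3K4me3 peak ended just before it, at 7.19 kb. The reverse, marked in E2, at 24 h and at 40 h and not at 72 or 120 h, was seen at 0 of 147, 0 of 240 and 4 of 1177 sites, and at 12 of 15786 sites in neither list. The 4 lay in Cd34 and Foxp1, 8186 bp from Muc13, and 109552 bp from Sox4, and were named after their values were seen. Cd34, Muc13 and Sox4 are in the stem list, but the Sox4 site is beyond the 10 kb used for it. The share of all E2-only sites nearest to genes of that list was not computed. The starts of Cd34, Foxp1 and Sox4 carried H3K4me3 in all 5 lists, and that of Muc13 in all but the 120 h list. At Cd34 the H3K4me3 peak that starts at the gene's 5′ end reached 4.41, 4.57 and 4.34 kb into the gene in the E2, 24 h and 40 h lists, into the site, which begins at 4.14 kb. Its peaks reached 3.78 kb at 72 h and 1.25 kb at 120 h.

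The starts of genes near sites were marked as follows. In E2, an H3K4me3 peak lay within 1 kb of a start in 45 of 75 genes near 72 h-only sites, 86 of 139 near shared sites and 359 of 582 near E2-only sites, beside 45.1% of 17274 genes. At 72 h the numbers were 54, 93 and 397, beside 48.7%. Genes near V5-Hoxa9-AM V5 sites in neither list were marked in 67.3% (E2) and 72.0% (72 h) of cases, at or above the 60%, 61.9% and 61.7% in E2 and the 72%, 66.9% and 68.2% at 72 h of the 3 classes. Marked at 72 h and not in E2 were 9 of 75 genes near 72 h-only sites (12%, 5.64 to 21.6), 7 of 139 near shared sites (5.04%, 2.05 to 10.1) and 43 of 582 near E2-only sites (7.39%, 5.40 to 9.82), beside 3.88% of all genes with a start in the table and 5.03% (4.47 to 5.63) of genes near sites in neither list. The reverse, marked in E2 and not at 72 h, was seen at 0 of 75, 0 of 139 and 5 of 582 genes, beside 52 of 17274. Marked at 120 h and not in E2 were 12, 14 and 53 of them, 16.0%, 10.1% and 9.11%. The share was 5.42% of all genes and 7.36% (6.69 to 8.07) of genes near sites in neither list. In the 120 h list as a whole, 57, 100 and 406 were marked (76.0%, 71.9% and 69.8%). There the share was 50.2% of all genes and 74.4% of genes near sites in neither list. The intervals of the 3 classes overlap.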

How the data were processed

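Members and gene lists were chosen with earlier results of these data known. The deposited files used here are lists of peak coordinates, with no score or height, so their unit was taken as other; 10 of the 21 deposited lists were used. The submitters' processing notes name Bowtie2 2.0, MACS2 2.0 and BWA with builds mm9 and mm10; which file used which, the calling threshold and the read depth are not given in the sources used here. H3K27ac and H3K27me3 lists were not used here. Coordinates were checked as mm10 by distance to RefSeq starts: 11.8% of V5-Hoxa9-AM V5 sites lay within 1 kb of a start and 3.64% after a shift of 100 kb, and 69.8% and 5.88% of H3K4me3 peaks in E2. The 72 h list alone gave no contrast (3.75% and 3.75%).

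Overlap meant 1 bp. Intervals at 95% are Clopper-Pearson for a share and Newcombe for a difference, computed with Python 3.11.15, pandas 2.3.3, numpy 2.4.6 and scipy 1.17.1, figures with matplotlib 3.10.9; overlap counting was checked on simulated intervals. Genes are the 21631 protein-coding genes of the RefSeq GRCm38.p6 table on chromosomes 1 to 19 and X; start sites and promoter windows exist for 17274 of them and for none on chromosome 18. All 311 list entries matched. The lists hold no score, so site width replaced it in the rule for named genes: the nearest gene of the 10 widest sites per class, list genes within 10 kb, genes with most sites, and a fixed set of genes. Names outside it, which are genes under promoter windows, at sites with stepwise H3K4me3 and list genes past the first 6 near E2-only sites, were chosen after their values were seen. Groups came from titles and treatment labels.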

Additional observations from a re-analysis of the deposited data

How the results depend on the processing

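Each group is 1 library, so no test was run and no call could be lost. No paired analysis was possible because each group is a single library and the result comes from no test. All overlaps between both lists are exact matches, so 50% reciprocal overlap and identical coordinates could not change the shares and say nothing on stability; a 500 bp gap gave 62.3% and 17.2%, and merging within 1 kb 62.2% and 17.1%. Sites above the median width gave 73.1% of 72 h sites in the E2 list and 19.9% of E2 sites in the 72 h list. The E2 list cut to the length of the 72 h list gave 38.2%, and E2 sites at least as wide as the narrowest 72 h site, chosen after seeing the data, 22.4%. For H3K4me3, a peak within 1 kb gave 7.48% (E2-only class, E2 list), 13.8% (shared, 72 h), 10.9% (E2-only, 72 h) and 14.4% (E2-only, 120 h). Peaks above the median width gave 0.0% (72 h-only class, E2 list), 1.95% (E2-only, E2), 4.17% (shared, 72 h), 2.97% (E2-only, 72 h), 4.08% (72 h-only, 120 h), 5.42% (shared, 120 h) and 3.14% (E2-only, 120 h). Lists of equal length gave 5.69% (E2-only, 72 h), 7.48% (72 h-only, 120 h), 8.33% (shared, 120 h) and 6.46% (E2-only, 120 h). Genes within 50 kb numbered 234, 355 and 1587 for the 72 h-only, shared and E2-only classes, and with non-coding genes added they numbered 152, 259 and 1200. Gene ends within 2.5 kb gave 11.3% (shared) and 9.52% (E2-only). The cause of these moves was not tested beyond the construction of each setting. In all, 33 values moved less than their interval or count limit. They include the reciprocal and identical-coordinate values, and the reciprocal values for the other V5 and AM lists, which exact matches fixed in advance. The 33 is thus no measure of stability. Of values for single gene lists 20 moved and 58 did not. The search for motifs in sites and its alternative were not run, as no genome sequence was used.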
